A study of Mus musculus with 35 samples.

Results

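Genes that mark the alveolar macrophage, 10 in all, were followed across the lungs of 35 mice: Marco, Mrc1, Cd68, Pparg, Chil3, Ear2, Plet1, Krt79, Atp6v0d2 and Ctsk. They are the rows of the deposited table, 10 of 22211 genes, whose symbol is one of these names. The rows were picked by name alone, but the names were chosen with earlier results of these data known. All 10 passed the filter on low values that kept 16786 genes. The question was how their levels differed with time of day, with removal of neutrophils and between batches.

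Alveolar macrophages are the resident phagocytes of the air spaces, where they take up inhaled particles and microbes and break down surfactant. In mice they arise largely before and around birth and renew themselves locally, and their identity depends on GM-CSF made by alveolar epithelium, on TGF-β and on the nuclear receptor PPARγ. Their transcriptome is rich in scavenger receptors, lysosomal enzymes and proton pump subunits, and genes of lipid handling.

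The groups were DT mice, anti-Ly6G mice and control mice, each sampled at ZT16 and at ZT4 (16 and 4 hours after lights on). DT mice carried MRP8-Cre, which is active in neutrophils and other myeloid cells, with iDTR, a Cre-dependent diphtheria toxin receptor, and received diphtheria toxin (DT) at 10 ng per g. Anti-Ly6G mice were wild type and received clone 1A8, an antibody to a neutrophil surface protein, at 3 µg per g, and control mice were wild type and received control IgG at the same dose. All mice were males of 7 to 9 weeks, injected under the skin on 2 consecutive days, and the left lung lobe was perfused and frozen on the next morning. ZT16 mice lived in cabinets with an inverted light cycle and ZT4 mice in the normal facility, so time of day and housing cannot be told apart. Of the 7 mice in each anti-Ly6G and control group, 3 were processed in July 2017 and 4 in September 2017. DT mice numbered 3 at ZT16 and 4 at ZT4, all processed in April 2018 with no other group, so DT, genotype and batch cannot be told apart and DT levels were not tested against those of the other mice.

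Levels are the deposited normalised values per gene, with no unit of their own and of unknown read depth. Differences are log2 changes ± SE from limma, and a gene is called where the p adjusted over all genes is under 0.05. Libraries are named by group, batch and their order in the table (ZT4_control Sep#2). One of them, ZT4_control Sep#2, stood apart in neutrophil genes: the sum of 11 such genes was 820.3 there, against a median of 197.5 in ZT4 controls. The same sum ran from 57.7 to 151.3 in anti-Ly6G mice at ZT4, against 92.8 to 820.3 in control mice at ZT4. Among the 10 genes, ZT4_antiLy6G Sep#4 stood lowest of all libraries for 6, and ZT4_control Sep#2 was the highest for Chil3 and Atp6v0d2. Other markers of the cell type were present in every group: Siglecf, a sialic acid-binding receptor, averaged 6.85 to 8.99 over the groups, and Itgax, the integrin CD11c, 33.2 to 36.6. The lobes are mixtures of many cell types, so fewer macrophages and less RNA of a gene per macrophage cannot be told apart in any result here.

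The 3 genes whose level differed with time, Plet1, Chil3 and Ctsk, are shown here by the 250 bases before their start sites, with searched motifs in capitals.
Plet1 promoter, chr9:50494275-50494524, plus strand: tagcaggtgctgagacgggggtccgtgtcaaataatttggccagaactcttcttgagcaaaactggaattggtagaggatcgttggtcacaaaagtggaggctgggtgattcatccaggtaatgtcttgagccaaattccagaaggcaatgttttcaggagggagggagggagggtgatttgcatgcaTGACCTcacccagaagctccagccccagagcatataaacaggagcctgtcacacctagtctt
Chil3 promoter, chr3:106167565-106167814, minus strand: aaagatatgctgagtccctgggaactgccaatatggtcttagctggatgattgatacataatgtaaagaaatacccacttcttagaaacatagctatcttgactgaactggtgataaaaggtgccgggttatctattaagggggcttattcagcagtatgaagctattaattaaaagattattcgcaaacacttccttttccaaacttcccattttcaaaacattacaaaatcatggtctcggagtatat
Ctsk promoter, chr3:95498960-95499209, plus strand: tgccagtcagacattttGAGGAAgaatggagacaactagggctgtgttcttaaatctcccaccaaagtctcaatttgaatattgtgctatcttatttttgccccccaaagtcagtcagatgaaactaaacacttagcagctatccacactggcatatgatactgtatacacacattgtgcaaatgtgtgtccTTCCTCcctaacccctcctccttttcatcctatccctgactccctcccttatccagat
The sequences are RefSeq promoters of build GRCm38.p6, which lists one or more for 9 of the 10 genes. Motifs were searched on both strands. The E-box CACGTG, bound by the clock factors CLOCK and BMAL1, was in none of the 9 genes' promoters, and in 6.04% of 32536 promoters. The D-box TTATGTAA, bound by PAR bZIP clock output factors, was likewise in none, and in 0.811% of all. The nuclear receptor half-site AGGTCA stood in the promoters of Plet1 and Pparg, and in 14% of all. The PU.1 core GAGGAA, for the macrophage factor PU.1, stood in those of Marco, Mrc1, Cd68, Pparg and Ctsk, and in 23.4% of all. The longer PPAR element AGGTCANAGGTCA was in none of the 9, and in 0.0338% of all. The capitals mark the half-site in Plet1, read on the opposite strand, and PU.1 cores in Ctsk, and Chil3 held none of these motifs. On the same build, with GENCODE vM21 genes, Plet1 lies at 50494525 to 50505482 on chromosome 9, Chil3 at 106147554 to 106167564 and Ctsk at 95499256 to 95509362, both on chromosome 3. All are protein-coding genes.

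Of the 10 genes, 3 were called between the times of day in DT or anti-Ly6G mice, and each was higher at ZT16. Time of day and housing cannot be told apart in these differences. Plet1, which encodes a membrane-anchored surface protein, rose in DT mice and in anti-Ly6G mice. Ctsk, which encodes the collagen-cleaving protease cathepsin K, rose in DT mice, and Chil3, which encodes the chitinase-like lectin Ym1, rose in anti-Ly6G mice. In DT mice 2 of 10 genes were called, both higher, where 15.3% of all genes tested were called, 5.3% higher and 9.98% lower. In anti-Ly6G mice 2 of 10 were called, both higher, where 20.9% of all genes were called, 10.6% higher and 10.4% lower. In control mice 0 of 10 were called in either direction by limma, where 9.04% of all genes were called, 4.65% higher and 4.38% lower. At an unadjusted p under 0.05 it was 0 of 10 genes in control mice and 23.8% of all genes. The shares in DT and anti-Ly6G mice are close to those of all genes, so they say nothing particular about the 10 genes as a group. Their median change was 0.238 in DT mice, 0.101 in anti-Ly6G mice and 0.028 in control mice, beside -0.009, -0.016 and -0.002 over all genes tested. A single library weighs on the DT value. The mean log2 level of the 10 genes was 5.166 in ZT16_DT Apr#1, 4.583 in Apr#2 and 4.789 in Apr#3. At ZT4 it ran from 4.514 to 4.728 in DT mice. The median change without ZT16_DT Apr#1 was not computed.

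**Figure D1:**
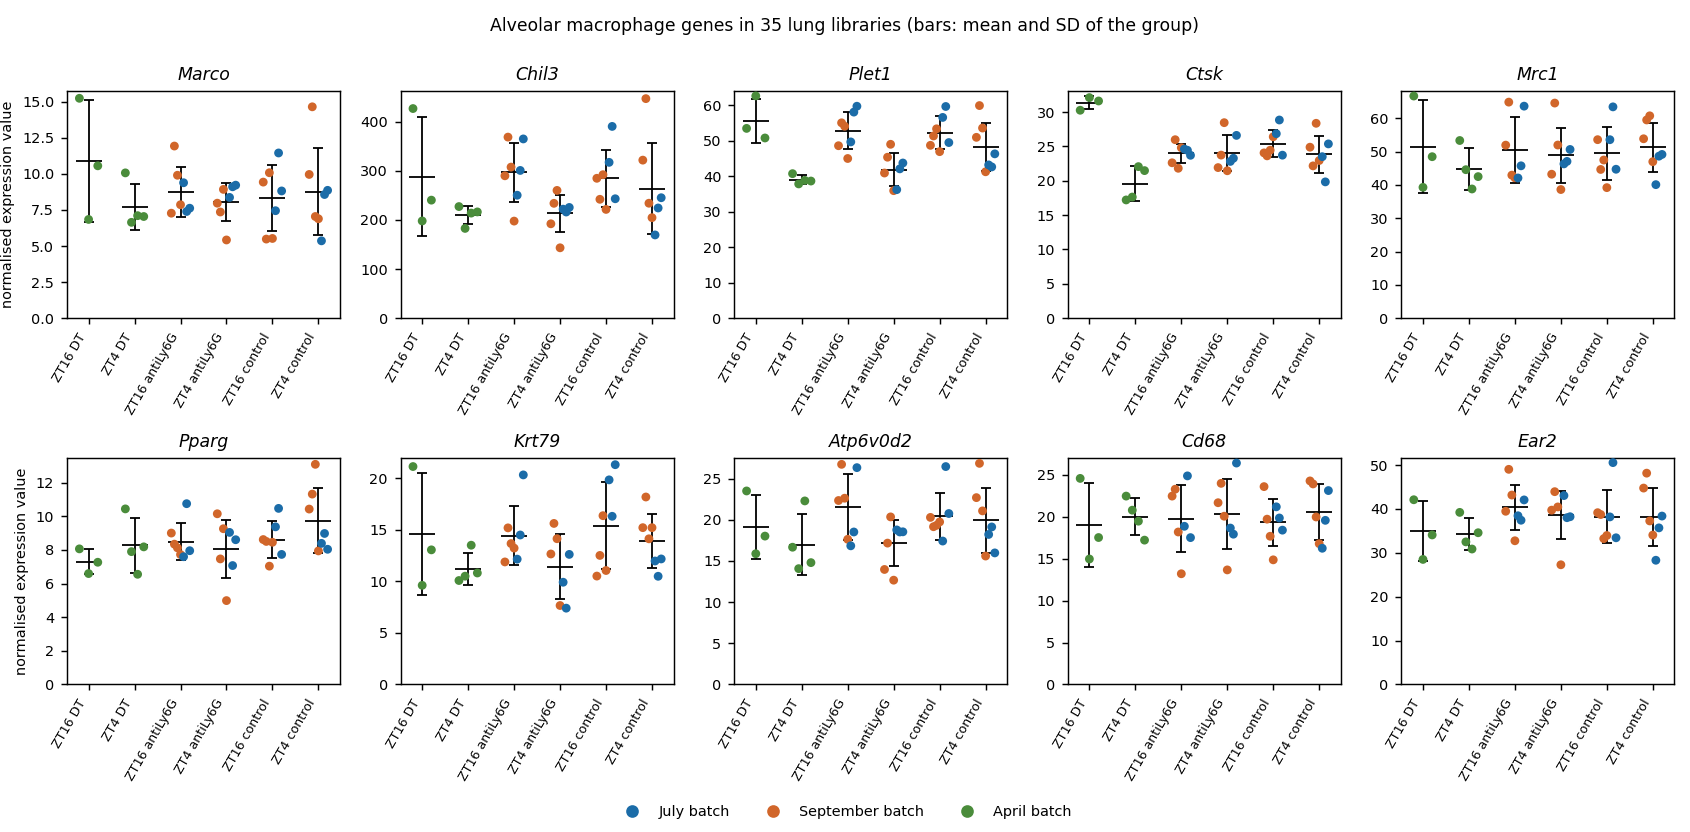
Normalised expression value (vertical axes, each starting at 0) of the 10 genes in each of the 35 libraries, by group, with the batch as colour and bars for the group mean and SD. Plet1 and Ctsk of the ZT16 DT mice lie above all ZT4 DT mice, and for the other 8 genes the ranges of all 6 groups overlap.

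Plet1 alone of the 10 genes was called with time in both DT and anti-Ly6G mice. In DT mice it stood at 53.5, 62.6 and 50.8 at ZT16, against 40.7, 37.8, 38.8 and 38.6 at ZT4. Every ZT16 DT mouse was above every ZT4 DT mouse, as was so, in that direction, for 10.9% of all genes. The change was 0.50 ± 0.11, a 1.42-fold rise (adjusted p = 0.0031). In anti-Ly6G mice Plet1 ran from 44.97 to 59.7 with a median of 54.1 at ZT16, against 35.9 to 49.0 with a median of 42.1 at ZT4. The 2 ranges overlap, and the change was 0.33 ± 0.079 (1.26-fold, adjusted p = 0.00242). Control mice ran from 46.9 to 59.6 with a median of 51.3 at ZT16, against 41.2 to 59.9 with a median of 46.3 at ZT4. Their change was 0.12 ± 0.079 with a 95% interval from -0.04 to 0.28 (adjusted p = 0.369). The means of the 3 ZT16 groups (55.6, 52.9 and 52.3 in DT, anti-Ly6G and control mice) all lay above those of the 3 ZT4 groups (39.0, 41.9 and 48.2). Over anti-Ly6G and control mice together the change was 0.23 ± 0.056 (adjusted p = 0.00207), the 1 call among the 10 genes where 29.3% of all genes were called, 14.1% higher. The difference of its time change between treatments was not called: the change was 0.38 ± 0.14 larger in DT than in control mice (adjusted p = 0.0601) and 0.21 ± 0.11 larger in anti-Ly6G than in control mice (adjusted p = 0.84). Within batches the pooled change was 0.39 in July (adjusted p = 0.00225) and 0.11 in September (adjusted p = 0.3). Of Plet1's 1947 exon bases, 261 also belong to Plet1os, a gene on the opposite strand that has its own row, and reads from the 2 cannot be told apart there unless the counting used strand, which no source used here states.

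Ctsk rose in the DT mice. Its values were 30.3, 32.1 and 31.6 at ZT16, against 17.2, 17.6, 22.1 and 21.5 at ZT4. The 2 groups do not overlap, and the change was 0.67 ± 0.10, a 1.59-fold rise (adjusted p = 4.6e-05). Anti-Ly6G mice averaged 24.0 ± 1.41 at ZT16 and 24.0 ± 2.57 at ZT4 (SD, n = 7 each), a change of 0.00 ± 0.072. Control mice averaged 25.4 ± 1.99 at ZT16 and 23.9 ± 2.70 at ZT4 (SD, n = 7 each), a change of 0.09 ± 0.072 (adjusted p = 0.466). The 3 ZT16 DT mice and 2 of the ZT4 DT mice thus mark both ends of the gene's range over all 35 libraries. The test of the difference itself was passed: the time change was 0.58 ± 0.13 larger in DT than in control mice (adjusted p = 0.00315) and 0.67 ± 0.13 larger than in anti-Ly6G mice (adjusted p = 0.000419). Ctsk was the 1 gene of the 10 called in each of these, where 13.8% of all genes were called against control mice, 4.93% higher, and 19.1% against anti-Ly6G mice, 7.44% higher. Those background counts rest partly on single libraries: against control mice 2314 genes were called in all, but 1164 without ZT4_DT Apr#1, 1463 without ZT16_DT Apr#1 and 1487 without ZT16_DT Apr#2, and the count against anti-Ly6G mice was lower as well without ZT4_DT Apr#1, at 2122 genes. Summed markers of other cells differed with time in the same DT mice. The sum of 10 fibroblast genes, cells that can also express Ctsk, ran from 2250 to 2706 at ZT16, against 2892 to 3012 at ZT4. The sum of 11 neutrophil genes ran from 116.7 to 210.2 at ZT16, against 60.3 to 86.6 at ZT4. That of 11 monocyte genes ran from 939.6 to 1213 at ZT16, against 1303 to 1605 at ZT4. Such sums follow their highest genes. Of 9 neutrophil genes tested, 7 changes were positive and 2 negative in DT mice, with a median of 0.128 and only Ltf called. Of the monocyte genes 8 changes were negative and 3 positive, with a median of -0.413. In control mice 9 were negative and 2 positive, yet the monocyte sum was higher at ZT16 (1345 to 1598, against 910.4 to 1310). The part of these cells in the rise of Ctsk and Plet1 was not tested.

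Of the secreted products, Chil3 rose in anti-Ly6G mice. It ran from 197.7 to 368.8 with a median of 300.9 at ZT16, against 143.3 to 260.2 with a median of 222.0 at ZT4. The ranges overlap, and the change was 0.47 ± 0.17 (1.39-fold, adjusted p = 0.048). That call lies close to the threshold and was lost when any of 11 of the 14 anti-Ly6G libraries was left out, with adjusted p between 0.0535 and 0.12. Control mice averaged 284.6 ± 57.6 at ZT16 and 263.9 ± 93.3 at ZT4 (SD, n = 7 each), a change of 0.15 ± 0.17 (adjusted p = 0.65). In DT mice the values were 427.0, 198.0 and 240.4 at ZT16, against 227.3, 182.8, 214.0 and 216.4 at ZT4. The change was 0.38 ± 0.25 (adjusted p = 0.307), and 0.06 without the high library ZT16_DT Apr#1. Over anti-Ly6G and control mice the change was 0.31 ± 0.12 (adjusted p = 0.0514). Ear2, a secreted ribonuclease of the eosinophil-associated family, was not called, with changes of 0.01 ± 0.16 in DT, 0.06 ± 0.11 in anti-Ly6G and 0.01 ± 0.11 in control mice. Reads of both genes may be shared with copies. Of the 31-base words in Chil3's transcripts 41.5% also occur in other genes, most of them in Chil4, and for Ear2 the share is 60.5%, most in Ear1, so the values of both are uncertain.

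The uptake receptors Marco, Mrc1 and Cd68 and the lineage factor Pparg were not called with time in any treatment. Marco, a scavenger receptor for bacteria and particles, stood at 15.2, 6.84 and 10.6 in DT mice at ZT16, against 10.1, 6.64, 7.10 and 7.04 at ZT4, and its change was 0.42 ± 0.26 (adjusted p = 0.28). The log2 change of Mrc1, the mannose receptor CD206, was 0.17 ± 0.18 in DT, 0.04 ± 0.12 in anti-Ly6G and -0.05 ± 0.12 in control mice. That of Cd68, a glycoprotein of endosomes and lysosomes, was -0.09 ± 0.19 in DT, -0.04 ± 0.13 in anti-Ly6G and -0.08 ± 0.13 in control mice. Pparg, the nuclear receptor that GM-CSF induces in these cells, averaged 7.31 ± 0.735 at ZT16 and 8.27 ± 1.61 at ZT4 in DT mice (SD, n = 3 and 4). It averaged 8.60 ± 1.11 at ZT16 and 9.74 ± 1.95 at ZT4 in control mice (SD, n = 7 each), a change of -0.16 ± 0.13. The widest 95% interval of these 4 genes in control mice was that of Marco, from -0.43 to 0.31.

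Atp6v0d2 and Krt79 had positive changes in all 3 treatments, and neither was called. Atp6v0d2, which encodes the d2 subunit of the proton pump that acidifies lysosomes, ran from 16.8 to 26.7 at ZT16, against 12.7 to 20.3 at ZT4, in anti-Ly6G mice. Its change there was 0.32 ± 0.13 (adjusted p = 0.0729), against 0.05 ± 0.13 in control mice. Krt79, a keratin gene whose transcripts mark alveolar macrophages in mice, had a change of 0.35 ± 0.17 in anti-Ly6G mice (adjusted p = 0.151) and of 0.12 ± 0.17 in control mice. In DT mice Krt79 stood at 21.1, 9.60 and 13.04 at ZT16, against 10.1, 10.5, 13.5 and 10.8 at ZT4, so 1 mouse of the 3 was high. In anti-Ly6G mice 9 of the 10 changes were positive, as were 46.7% of those of all genes.

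**Figure D2:**
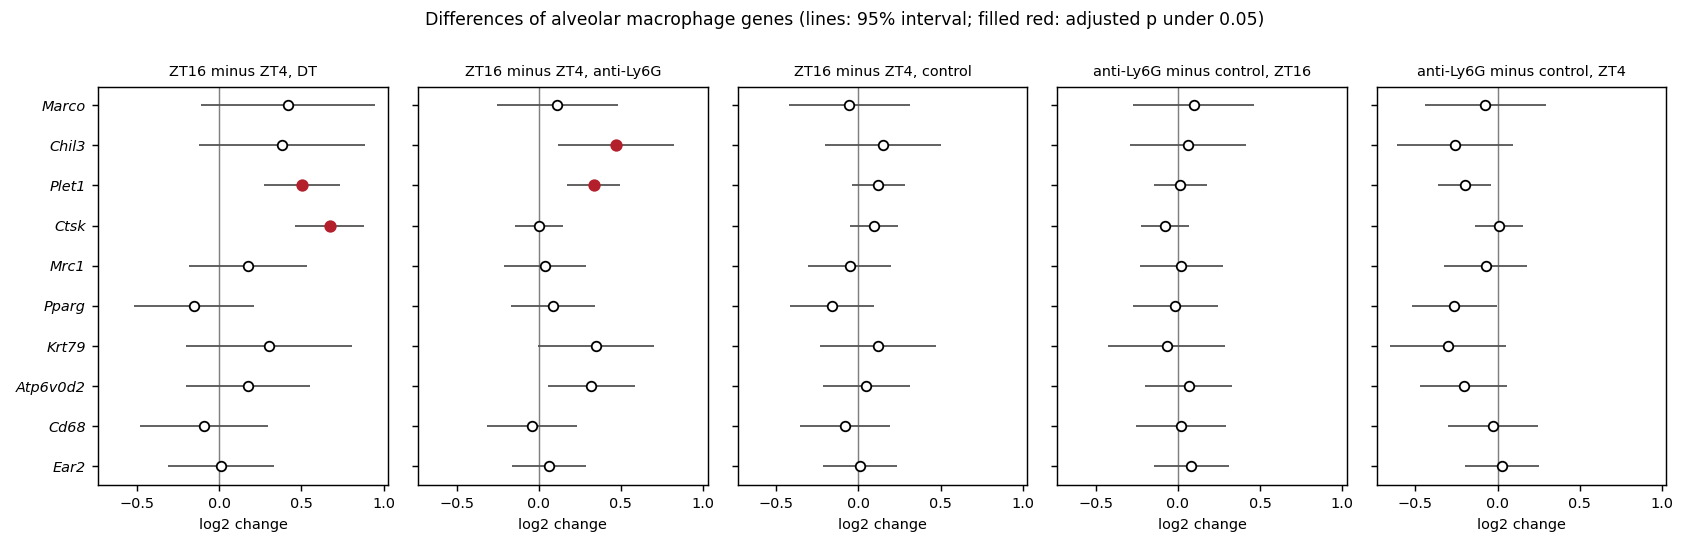
Log2 change (horizontal axes) of each gene with its 95% interval, for ZT16 minus ZT4 in DT, anti-Ly6G and control mice and for anti-Ly6G minus control at ZT16 and ZT4. Red points mark an adjusted p under 0.05: Ctsk and Plet1 in DT mice, Chil3 and Plet1 in anti-Ly6G mice.

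Between anti-Ly6G and control mice, none of the 10 genes was called. At ZT16, at ZT4 and over both times it was 0 of 10 by limma, and likewise 0 of 16786 genes in all (0%). The 9 neutrophil genes tested were not called either, with a median change of -0.991 at ZT4. The absence of a call therefore does not show equal levels. At an unadjusted p under 0.05, the counts were 0 of 10 at ZT16, 2 of 10 at ZT4 and 0 of 10 over both times, beside 4.18%, 7.06% and 5.37% of all genes. The 2 at ZT4 were Plet1, at 41.9 ± 4.74 in anti-Ly6G mice and 48.2 ± 6.85 in control mice, and Pparg, at 8.08 ± 1.73 in anti-Ly6G mice and 9.74 ± 1.95 in control mice (SD, n = 7 each). Their changes were -0.20 ± 0.079 (adjusted p = 0.663) and -0.26 ± 0.13 (adjusted p = 0.699). Over both times the 10 changes ran from -0.18 for Krt79 to 0.05 for Ear2, with a median of -0.053 beside 0.000 over all genes. The widest 95% interval was that of Marco, from -0.25 to 0.27. The difference of the time change between anti-Ly6G and control mice was called for 0 of 10 genes and 0 of 16786 in all, and at an unadjusted p under 0.05 for 0 of 10 genes and 6% of all.

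Levels of DT mice are set beside the others without a test. The lowest of the 6 group means was that of ZT4 DT mice in 8 of the 10 genes, and that of ZT16 DT mice in the other 2, Pparg and Cd68. The share of all genes with a DT group lowest was not counted, and most of the 10 genes covary, so this is a description. The spread of the group means was small, from 1.08 times between highest and lowest for Cd68 to 1.60 times for Ctsk, while the values of single libraries differed by more, from 5.36 to 15.2 for Marco and from 143.3 to 447.2 for Chil3. The coefficient of variation over all libraries ran from 13.8% for Ctsk to 27.5% for Chil3. In 8 of the 10 genes the ranges of all 6 groups overlapped, and the share of all genes with such overlap was not counted. Overlap is no test of means, as Chil3, among the 8, was called over time in anti-Ly6G mice. The order of the group means is a description.

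In control mice the signs of the time difference were unlike between the batches, which was not tested in these mice alone. No change of the 10 genes within a batch was called there by limma, the smallest adjusted p being 0.0686 for Krt79 in July. In July all 10 genes were higher at ZT16 in control mice, with a median change of 0.248, where 49.7% of all genes were positive. In September 1 of 10 was, with a median of -0.165, where 49.8% of all genes were positive. The sign was the same in both batches for 1 of 10 genes, beside 61.6% of all genes. Krt79 showed the widest gap. July controls held 19.1 ± 2.57 at ZT16 and 11.5 ± 0.917 at ZT4 (SD, n = 3 each), and September controls 12.6 ± 2.64 at ZT16 and 15.7 ± 1.74 at ZT4 (SD, n = 4 each). In anti-Ly6G mice the sign was shared by 8 of 10 genes, beside 66.8% of all genes, with 7 of 10 positive and a median of 0.063 in July (46.1% of all genes positive) and 9 of 10 and 0.135 in September (49.2% of all genes positive). The September minus July difference of the time change, averaged over anti-Ly6G and control mice, was below 0 for all 10 genes, where it was above 0 for 51.1% of all genes. It was called for 0 of 10, where 0.102% of all genes were called. At an unadjusted p under 0.05 it was 2 of 10 genes and 12% of all. For Krt79 it was -0.75 ± 0.20 (adjusted p = 0.123) and for Plet1 -0.28 ± 0.11 (adjusted p = 0.302). All of the genes but Ctsk covaried among mice, so their signs are not independent of each other. Without single libraries the 17 genes called among all became 7 (ZT4_antiLy6G Jul#1) to 147 (ZT16_antiLy6G Jul#3), and 47 without ZT4_antiLy6G Sep#4.

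The signs of the difference between treatments at ZT4 were also unlike between batches, again without a test. That difference rests on the same ZT4 control libraries as the time difference in control mice, so neither is separate from the other. The mean log2 level of the 10 genes in ZT4 controls was 4.661 in July and 4.927 in September. In ZT4 anti-Ly6G mice it was 4.707 and 4.655. At ZT4 anti-Ly6G mice were above control mice for 7 of 10 genes in July, with a median of 0.070, and for 0 of 10 in September, with a median of -0.286. Over all genes 53.3% were above in July and 49.3% in September. At ZT16 the signs went the opposite way. Anti-Ly6G mice were above control mice for 2 of 10 genes in July (median -0.071) and 9 of 10 in September (median 0.110). The share of all genes was not counted at ZT16. Without ZT16_control Jul#2 that July count was 7 of 10 and the median 0.027. Without ZT16_antiLy6G Sep#2 the September count was 6 of 10 and the median 0.017. Single libraries weighed on these counts. Without ZT4_control Jul#1 the July count at ZT4 was 4 of 10 and the median -0.034, so both batches then lay below 0, and without ZT4_antiLy6G Jul#3 and ZT4_control Jul#3 in turn the median was 0.022 and 0.139. Without ZT4_control Sep#2, 3 of 10 genes were positive over time in September controls and the median was -0.089, and without ZT4_control Sep#4 it was 0 of 10 and -0.295. Without ZT16_control Jul#2 the July median in controls was 0.109, with 10 of 10 still positive. In July anti-Ly6G mice the median over time was 0.007 with 5 of 10 positive without ZT4_antiLy6G Jul#2, 0.043 with 6 of 10 without ZT16_antiLy6G Jul#3, 0.110 without ZT4_antiLy6G Jul#3 and 0.167 without ZT16_antiLy6G Jul#1. In September anti-Ly6G mice the median over time was 0.135, but -0.035 with 4 of 10 positive without ZT4_antiLy6G Sep#4, and 0.233 without ZT4_antiLy6G Sep#2. The September median of anti-Ly6G minus control at ZT4 was -0.162 without ZT4_antiLy6G Sep#4 and -0.160 without ZT4_control Sep#2, the library with high neutrophil genes.

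**Figure D3:**
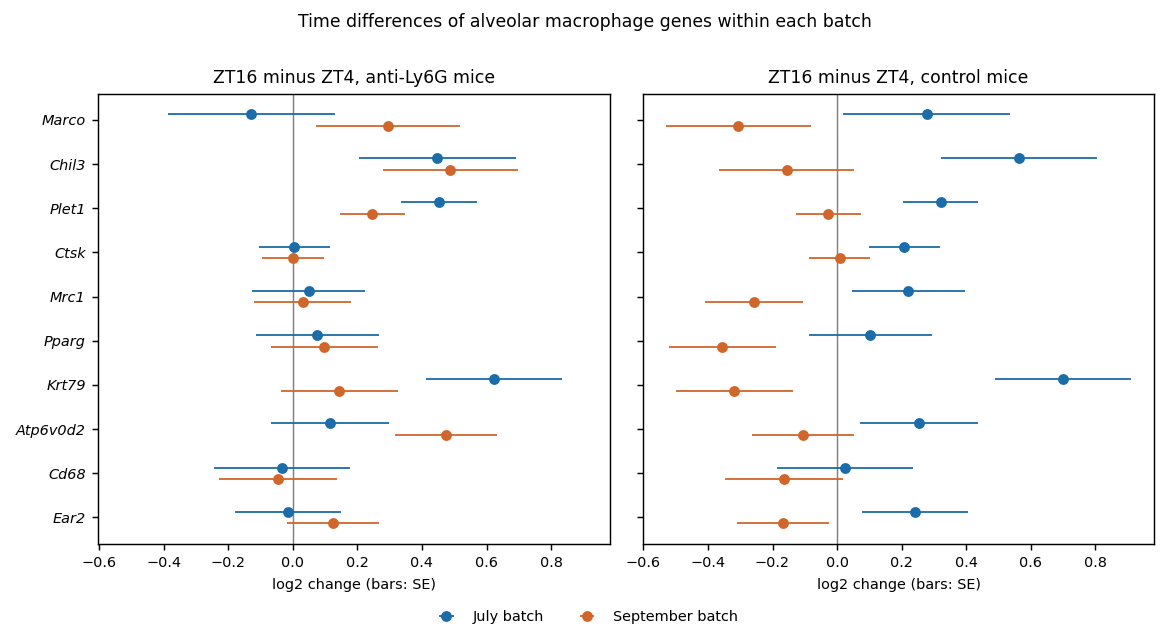
Log2 change, ZT16 minus ZT4 (horizontal axis, bars show the SE), of each gene within the July and September batches, for anti-Ly6G mice on the left and control mice on the right. In control mice all 10 July points lie right of 0 and 9 of the 10 September points left of it, with Krt79 farthest apart.

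Among mice of the same group and batch, the genes varied together. With the mean of each of the 10 combinations of group and batch taken out, 44 of the 45 pairs correlated positively over 35 libraries, with a median Pearson r of 0.480, and 20 pairs exceeded 0.5. The points share their library and its scaling, so the correlations are a description. Chil3 and Ear2, the 2 secreted products, were closest (r = 0.862), then Chil3 and Marco (r = 0.788), and Mrc1 with either Chil3 or Ear2 (r = 0.771). Ctsk stood outside this group, with a median r of 0.104 with the other 9 genes and its highest, 0.338, with Plet1. The median r was 0.425 for Pparg and 0.417 for Krt79. Leaving out each of the 35 libraries in turn gave a median r between 0.391, without ZT4_antiLy6G Sep#4, and 0.517. The median r of Ctsk then ran from 0.007 to 0.164. In ZT4_antiLy6G Sep#4 and ZT4_control Sep#4, all 10 genes were below the mean of their group and batch, and in ZT4_antiLy6G Sep#3 and ZT16_antiLy6G Sep#2 all 10 were above it.

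**Figure D4:**
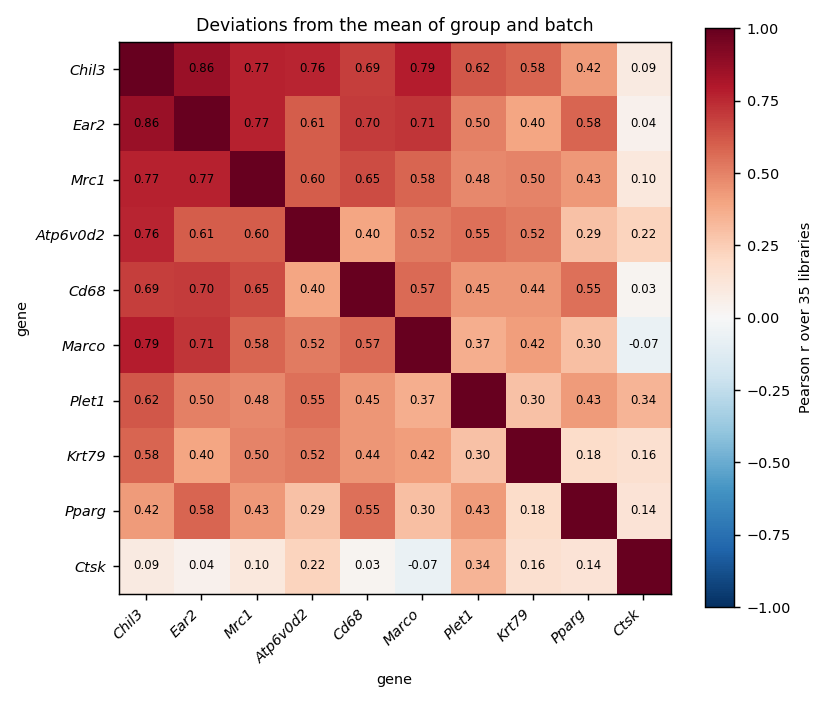
Pearson r (colour and number) between each pair of the 10 genes, over deviations of log2 values from the mean of group and batch in 35 libraries. Chil3, Ear2 and Mrc1 form the darkest block and the row of Ctsk is pale, between -0.07 and 0.34.

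The genes whose variation among mice was most like the mean of the 10 were Ear1 (r = 0.854), the aspartic protease gene Ctsd (r = 0.809), Siglec1 (r = 0.783), a sialic acid receptor of macrophages, Ms4a8a (r = 0.782), the chemokine gene Ccl6 (r = 0.772), Sla (r = 0.760), the potassium channel gene Kcnn3 (r = 0.753) and the cysteine protease gene Ctss (r = 0.749), all over 35 libraries. Ear1 shares sequence with Ear2, so its place is uncertain. Single genes had other companions. Plet1 was most like Csf2rb (r = 0.799), a subunit of the GM-CSF receptor, Cd68 most like Laptm5 (r = 0.848), and Krt79 most like Trim29 (r = 0.794), itself on the list of other alveolar macrophage genes. Ctsk was most like Ebp (r = 0.767), an enzyme of sterol synthesis.

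By list, the median r with the mean of the 10 genes was 0.493 for 29 other alveolar macrophage genes, beside 0.006 over all 16776 other genes. It was 0.419 for 9 neutrophil genes, 0.340 for 22 cathepsins and lysosomal proteins, 0.317 for 15 interstitial macrophage genes and 0.227 for 16 subunits of the proton pump (V-ATPase). Lower medians came from alveolar type 2 (0.184), monocyte (0.156), signal (0.134), fibroblast (0.097), dendritic cell (0.069), eosinophil (0.001) and lymphatic endothelial genes (-0.034). With single libraries left out, the median of the other alveolar macrophage genes ran from 0.431 to 0.513 and that of neutrophil genes from 0.293 to 0.471, and the neutrophil median was the higher one without ZT4_antiLy6G Sep#3 (0.458 against 0.450) or ZT16_antiLy6G Jul#1 (0.466 against 0.465). The interstitial macrophage median was 0.193 without ZT16_DT Apr#1. Without ZT4_antiLy6G Sep#4 the monocyte median was 0.020, the fibroblast median 0.027 and the lymphatic median 0.132. Ranges were 0.072 to 0.241 for signals, 0.111 to 0.250 for alveolar type 2, 0.034 to 0.124 for dendritic cell and -0.108 to 0.079 for eosinophil genes, so the order of the lists below the first few depends on single libraries. Neutrophil and macrophage genes thus covaried among lobes, and the part of one in the level of the other was not tested.

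**Figure D5:**
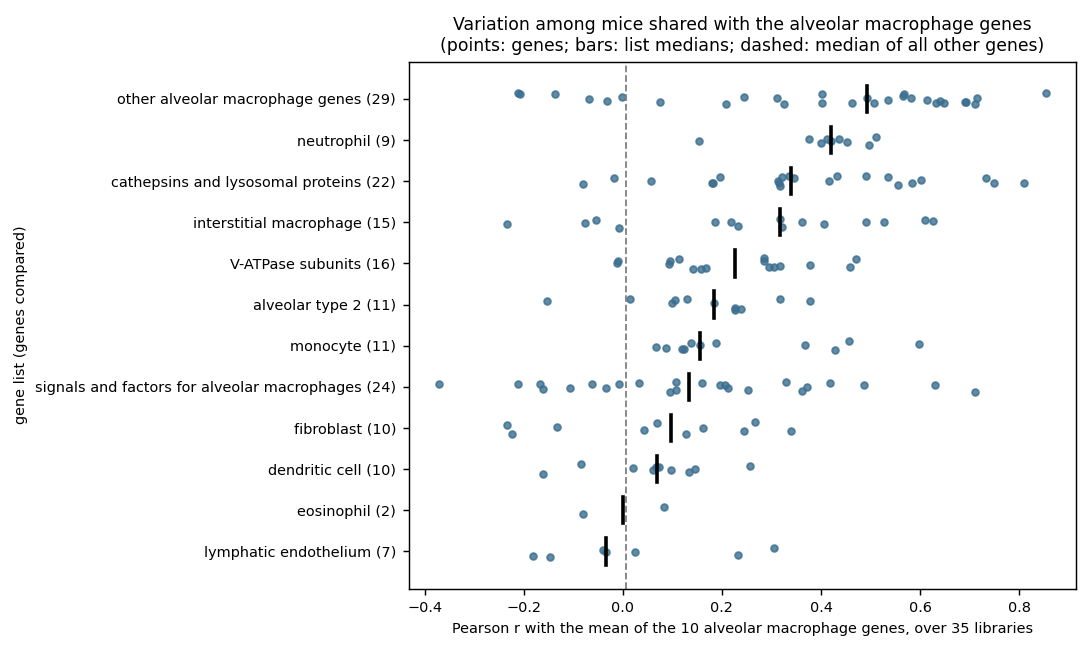
Pearson r (horizontal axis) of each gene of 12 lists with the mean of the 10 alveolar macrophage genes, over 35 libraries, after removal of group and batch means. Bars mark list medians, from 0.493 for other alveolar macrophage genes to -0.034 for lymphatic endothelium, and the dashed line the median of 0.006 over all other genes.

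Other alveolar macrophage genes were called with time in both directions. Of 29 tested, 2 were higher and 1 lower in DT mice, 5 higher and 2 lower in anti-Ly6G mice, and 1 higher and 3 lower in control mice. The totals of 3, 7 and 4 of 29 stand beside 15.3%, 20.9% and 9.04% of all genes called, so they are no result about this list. Their medians were 0.057, 0.121 and -0.037 in these treatments, beside -0.009, -0.016 and -0.002 over all genes. Fabp5, a fatty acid-binding protein gene, rose in anti-Ly6G mice (0.36 ± 0.084, adjusted p = 0.00229) and control mice (0.28 ± 0.084, adjusted p = 0.0293). The lipid genes Abcg1 (0.35 ± 0.090, adjusted p = 0.00567), a cholesterol exporter, and Lpl (0.47 ± 0.16, adjusted p = 0.0318), lipoprotein lipase, rose in anti-Ly6G mice, as did Car4 and Cd9. Msr1, a scavenger receptor of the same class as Marco, fell in anti-Ly6G mice to 2.03, against 4.24 at ZT4 (-0.85 ± 0.20, adjusted p = 0.00214), and in control mice to 1.76, against 3.03 at ZT4 (-0.61 ± 0.20, adjusted p = 0.0439). Cd36, a fatty acid receptor that lung endothelium also expresses, fell in all 3 treatments, to 734.1, against 1285 at ZT4, in DT mice (-0.80 ± 0.091, adjusted p = 5.27e-07). Krt19 (0.59 ± 0.097, adjusted p = 0.000121), a keratin also made by airway epithelium, and Lgals3 (0.32 ± 0.10, adjusted p = 0.0323), a lectin, rose in DT mice. Anti-Ly6G against control called 0 genes of this and of every other list, as of all genes.

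Of 24 genes for signals and factors that maintain the cells, 0 were higher and 4 lower in DT mice, 3 higher and 3 lower in anti-Ly6G mice, and 1 higher and 3 lower in control mice. The totals of 4, 6 and 4 of 24 lie near or little above the 15.3%, 20.9% and 9.04% of all genes called. Itgb6, the epithelial integrin subunit that activates TGF-β, fell in all 3 treatments: to 32.8, against 48.0 at ZT4, in DT mice (-0.54 ± 0.16, adjusted p = 0.0232), to 27.8, against 60.7 at ZT4, in anti-Ly6G mice (-1.15 ± 0.11, adjusted p = 4.66e-09) and to 33.8, against 54.1 at ZT4, in control mice (-0.68 ± 0.11, adjusted p = 0.000118). Tgfbr2, a TGF-β receptor, fell in DT mice (-0.33 ± 0.087, adjusted p = 0.0108). Il34, a ligand of the CSF1 receptor, rose in anti-Ly6G (0.55 ± 0.070, adjusted p = 6.53e-07) and control mice (0.39 ± 0.070, adjusted p = 0.000239). Csf2, which encodes GM-CSF, stood at 2.25 at ZT16 and 1.48 at ZT4 in DT mice, 1.62 and 1.95 in anti-Ly6G mice and 1.81 and 2.17 in control mice, with no call. Bhlhe41, a factor of alveolar macrophage renewal and also a clock repressor, fell in control mice (-0.59 ± 0.17, adjusted p = 0.0208).

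Genes of the lysosome were called in both directions. Of 22 cathepsins and lysosomal proteins, 0 were higher and 3 lower in DT mice, 7 higher and 1 lower in anti-Ly6G mice, and 3 higher and 2 lower in control mice, beside calls for 15.3%, 20.9% and 9.04% of all genes in these treatments. In DT mice the cathepsin gene Ctsl fell (-0.28 ± 0.053, adjusted p = 0.000574), as did the lysosomal lipase gene Lipa (-0.34 ± 0.081, adjusted p = 0.00498). In anti-Ly6G mice Tfeb, a factor for lysosomal genes, rose (0.45 ± 0.076, adjusted p = 6.26e-05), as did Ctsh (0.43 ± 0.078, adjusted p = 0.000174). Of 16 V-ATPase subunits, 2 were higher and 1 lower in DT mice, 1 higher and 0 lower in anti-Ly6G mice, and 1 higher and 0 lower in control mice, with Atp6v1g1 (0.34 ± 0.072, adjusted p = 0.00186) the largest in DT mice. Atp6v0d1, the widely expressed form of the d subunit, had no call.

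Relatives of the 10 genes by sequence or family, 7 of them tested, were called once higher and once lower in DT mice and 3 times lower in each of the other treatments. Of all genes, 15.3% were called in DT, 20.9% in anti-Ly6G and 9.04% in control mice. Those called lower were 9.98%, 10.4% and 4.38% in that order. With 7 genes tested, the counts are a description. Chia1, an acidic chitinase of the same family as Chil3, rose in DT mice (0.46 ± 0.15, adjusted p = 0.0303). Chil1 fell in anti-Ly6G (-0.32 ± 0.051, adjusted p = 2.81e-05) and control mice (-0.38 ± 0.051, adjusted p = 4.06e-06), and Mrc2, a collagen receptor related to Mrc1, fell in all 3 treatments (-0.34 ± 0.087 in DT mice, adjusted p = 0.00868). Chil4, whose sequence is closest to that of Chil3, averaged 0.634 to 1.11 over the groups with no call.

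Genes of other cells in the lobe moved with time as follows, each count being higher and lower in DT, anti-Ly6G and control mice in that order, where 15.3%, 20.9% and 9.04% of all genes were called. They are given as a description. Of 15 interstitial macrophage genes there were 0 and 0, 2 and 1, and 1 and 0. Of 11 monocyte genes there were 1 and 3, 1 and 5, and 1 and 1, with Ccr2 lower in anti-Ly6G mice (-0.64 ± 0.15, adjusted p = 0.00263). Of 10 dendritic cell genes there were 0 and 0, 0 and 1, and 0 and 0. Of 9 neutrophil genes there were 1 and 0, 0 and 0, and 0 and 1, with Ltf higher in DT mice (1.69 ± 0.43, adjusted p = 0.0083) and Mmp9 lower in control mice (-1.24 ± 0.29, adjusted p = 0.00487). Of 2 eosinophil genes Alox15 was higher in DT mice (1.54 ± 0.49, adjusted p = 0.0315), while the eosinophil markers Prg2 and Ccr3 averaged at most 0.179 and 0.187 in any group. Of 11 alveolar type 2 genes there were 0 and 6, 2 and 4, and 0 and 3, of 10 fibroblast genes 0 and 2, 1 and 2, and 0 and 2, and of 7 lymphatic endothelial genes 0 and 1, 2 and 0, and 2 and 0.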

How the data were processed

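RNA of the left lung lobe of 35 mice was amplified by a kit for single cells, then sequenced, per the labels' protocols. The submitters' processing notes name build GRCm38 and, with no role given, kallisto 0.43.1, RSEM 1.2.20, cutadapt and CASAVA 1.8.2. The deposited values are a normalised expression signal per gene. They hold 0 zeros and sum to between 962649 and 1033550 per library, and between 15351 and 15802 genes reach a value of 1. Neither normalisation nor batch adjustment is given in the sources used here. Over 16786 genes, the difference between September and July in units of its standard error had an SD of 0.522, where about 1 is reached without any batch difference, so the values appear aligned between batches and standard errors may be somewhat small. Depth is unknown, so no counting interval is given.

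A gene entered the tests where 3 or more libraries held a value of 1 or more, which 16786 genes did and 5425 did not. Values were fitted as log2(value + 0.5) by limma 3.58.1 (R 4.3.3, variance trend on) over 35 libraries. The model held the 6 group means plus 1 term for September relative to July, leaving 28 residual degrees of freedom. Tests were two-sided, with Benjamini-Hochberg adjustment over all genes kept and a threshold of 0.05. Every adjusted p comes from this test. Fold changes on this scale understate changes of low genes. The batch comparison and within-batch values used a mean per group and batch of 28 libraries (16707 genes, 20 residual degrees of freedom). The procedure was tested on simulated data. Columns name a group and batch but no labelled replicate. Each column was treated as its own mouse, and 0 pairs of columns were identical. Correlations are descriptions, with no test. Shared 31-base words and exon overlap were read from GENCODE vM21 transcripts.

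The 10 genes and the lists (other alveolar macrophage genes, their signals, V-ATPase subunits, lysosomal proteins, interstitial macrophage, monocyte, dendritic cell, neutrophil, eosinophil, alveolar type 2, fibroblast and lymphatic genes, near copies) were chosen with earlier results of these data known. The text names all 10 genes in each contrast, near copies, up to 3 called genes of smallest p per list and contrast (6 for other alveolar macrophage genes), and the 8 genes most like the mean. Siglecf, Itgax, Csf2, Prg2, Ccr3, Csf2rb, Laptm5, Trim29, Ebp, Lgals1, Chchd6 and Dbi were added after their values were seen. Alternatives were other pseudocounts, filters, scalings (trimmed mean of M values, TMM, among them), batch terms, library weights, fits of fewer groups, single batches and each library left out.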

Additional observations from a re-analysis of the deposited data

Results flagged for a closer look

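In 5 of 50 combinations of gene and group with 4 to 7 libraries, 1 library stood far from the others by Dixon's test, where chance alone marks about 1 in 20. Marco stood at 10.07 in ZT4_DT Apr#1, with the next library at 7.103. Krt79 stood at 20.3 in ZT16_antiLy6G Jul#3, with the next at 15.17. ZT16_control Jul#2 was high for Atp6v0d2, at 26.45 with the next at 20.75, and for Ear2, at 50.56 with the next at 39.15. Ear2 stood at 27.28 in ZT4_antiLy6G Sep#4, below the next lowest of 38.01.

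The time change of Ctsk differed between treatments by the test of the difference itself. It was 0.5787 larger in DT than in control mice (limma, adjusted p = 0.00315) and 0.6700 larger in DT than in anti-Ly6G mice (limma, adjusted p = 0.000419). DT mice differ from both in batch and genotype, and these cannot be told apart.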

How the results depend on the processing

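Calls of Ctsk and Plet1 over time in DT mice, and of Ctsk in DT against control and anti-Ly6G mice, were kept in every alternative run. The number of the 10 genes called over time in anti-Ly6G mice was 2, and 1 without a filter on low values, without the trend option and in July libraries alone, 0 in September libraries alone, and 1 to 3 with 1 library left out. Over anti-Ly6G and control mice it was 1, and 2 under the 20-library filter, median-centred scaling, no batch term, library weights or the compared groups alone, 3 in July alone, 0 in September alone, and 1 to 2 with 1 library left out. For DT against control it was 1, and 2 under TMM scaling, where Plet1 was called (0.40, adjusted p = 0.0457), and 1 to 2 with 1 library left out. Between batches it was 0, and 0 to 1 with 1 library left out, Krt79 without ZT4_antiLy6G Sep#4 (-0.85, adjusted p = 0.0284). Chil3 was lost in anti-Ly6G mice in 4 other alternatives (adjusted p between 0.0605 and 0.164). Plet1 was lost in September alone, in anti-Ly6G mice (0.25, adjusted p = 0.146) and over both treatments (0.11, adjusted p = 0.32). Atp6v0d2 was called in anti-Ly6G mice without ZT16_antiLy6G Sep#4 (adjusted p = 0.0462) or Jul#1 (adjusted p = 0.0414). Counts over all genes fell in single batches, to 801 in July and 1487 in September in anti-Ly6G mice, against 3514 in both, to 318 and 504 in control mice, against 1517, and to 1821 and 3153 over both treatments, against 4914. In DT mice the count was 2565, and 1190 without ZT4_DT Apr#1, 1559 without ZT16_DT Apr#1 and 1537 without ZT16_DT Apr#2. Fewer libraries enter each of these fits. Among changes of single genes that were not called, 56 changed sign under a setting and 176 with 1 library left out, and 0 called values changed sign. The alternatives that leave single libraries out of correlations and batch signs were chosen after seeing the data. No paired analysis was possible because the table's columns carry no replicate numbers of the labels.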

Other observations

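Of the 10 genes most like Ctsk in their variation among mice, 2 were called with time in DT mice, both higher. Of all genes 15.3% were called there, 5.3% higher and 9.98% lower, so the count says nothing particular about these 10. The 2 were Ebp, an enzyme of sterol synthesis (0.41 ± 0.089, adjusted p = 0.00226), and Lgals1, a lectin that fibroblasts and macrophages express (0.42 ± 0.12, adjusted p = 0.017). Ebp rose in anti-Ly6G mice too (0.28 ± 0.062, adjusted p = 0.00137), where Ctsk was not called and Chchd6 (-0.35, adjusted p = 0.00317) and Dbi (-0.28, adjusted p = 0.00956) of the same 10 fell. Of the 8 genes most like the mean of the 10, Kcnn3 (0.48 ± 0.14, adjusted p = 0.0114) and Ctsd (0.24 ± 0.076, adjusted p = 0.019) rose in anti-Ly6G mice, and 0 were called in DT or control mice. Of all genes, 20.9% were called in anti-Ly6G mice, 10.6% higher, 15.3% in DT mice and 9.04% in control mice. With 8 genes, these calls are no result about genes like the 10. All p-values are from limma.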
